A study of Mus musculus with 8 samples.

Results

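Keratin transcripts were examined in RNA sequencing libraries of naive CD8 T cells, which are cytotoxic T cell precursors that have not yet met antigen. The members are the 52 rows, of 22609 in the deposited gene table, whose symbol is Krt followed by a number. Keratin-associated proteins (Krtap) and Krtcap genes were left out. The donors were C57BL/6 mice aged 3 months, and the cells were taken straight from the spleen. The mice were either wild type (WT) or Brca1 heterozygous (Het), with 4 libraries of each genotype and no treatment. The labels do not say how the Brca1 allele was made, or the sex and number of mice behind a library. The p-values therefore measure the spread between these libraries, which are named by genotype and title number: WT 45, 54, 57 and 65, and Het 31, 53, 56 and 139.

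Keratins are the intermediate filament proteins of epithelial cells, and a filament needs a type I and a type II keratin in pairs. The pair differs by cell: Krt5 with Krt14 in the dividing basal layer of stratified epithelium, Krt1 and Krt2 with Krt10 in the layers above it, and Krt8 with Krt18 in single-layered epithelium. Other members build the hair shaft and its sheaths. T cells carry vimentin filaments instead, and the keratins are not known as markers of any lymphocyte.

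The values are normalized read counts that the authors brought to 1 shared distribution, so every library had a total near 27489000 and depth shows only in the low values. The lowest value above 0, that of 1 read, lay between 0.2 and 0.3 for WT libraries and between 0.9 and 1.9 for Het libraries. The reads behind a low value were estimated from its place among a library's distinct values. On that estimate a value of 100 stood for 106 to 128 reads (WT) or 74 to 121 reads (Het). Intervals for counting error were not computed, because the reads are estimates and PCR copies were not marked. The label of the cells was met by their markers: Cd8b1, a chain of the CD8 coreceptor, was between 41051.8 and 55751.7 in the 8 libraries, and the intermediate filament gene Vim between 8107.3 and 12151.4. Genes above 0 numbered between 15358 and 15569 per WT library and between 13863 and 14656 per Het library.

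Most keratins were at 0 or nearly so, and the highest values were those of epidermal keratins. Of the 52 rows, 20 were listed at 0 in all 8 libraries, 15 stayed below 10 everywhere, and 17 reached 10 in at least 1 library. Only 9 had the mean of at least 10 over the 8 libraries that the genotype test asked for. Summed over all keratins, the signal came to 8416.2 for WT 45, 6201.9 for WT 54, 258.8 for WT 57 and 149 for WT 65. It was 434.6, 177.1, 1248.8 and 475.6 in Het 31, 53, 56 and 139. WT 45 and WT 54 stood above the other 6 libraries, and Het 56 was the next. In bulk samples, more cells of a type cannot be told apart from more RNA per cell. Even in WT 45 the sum was 0.0306% of the library's signal, and in WT 65 it was 0.000542%.

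**Figure D1:**
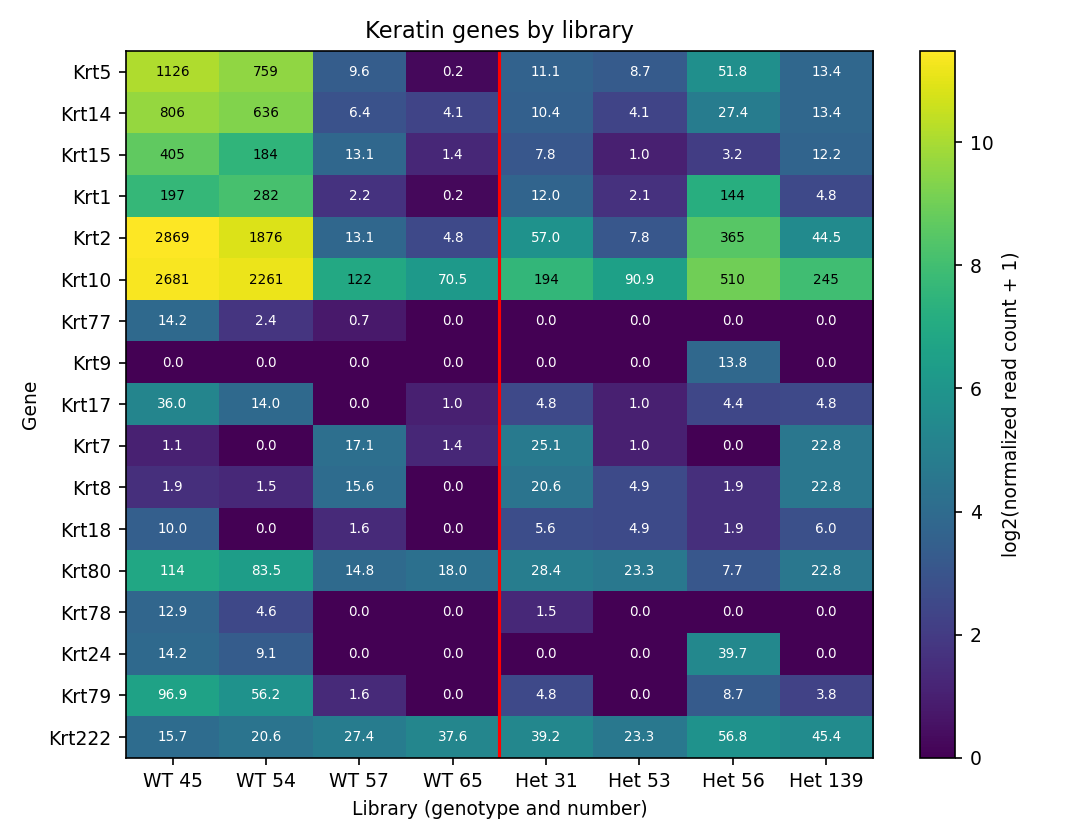
Normalized read count of the 17 keratins that reached 10 in at least 1 library, with libraries as columns (WT left of the red line, Het right) and color on the log2(value + 1) scale; the numbers in the cells are the values. Krt5, Krt14, Krt15, Krt2, Krt10, Krt79 and Krt80 are highest in WT 45 and next in WT 54, and Krt222 is above 15 in every library.

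The basal keratins were high in WT 45 and WT 54 and low in the other 6 libraries. Krt5, the type II keratin of basal cells, had values of 1125.6, 758.9, 9.6 and 0.2 in WT 45, 54, 57 and 65, and of 11.1, 8.7, 51.8 and 13.4 in Het 31, 53, 56 and 139. WT 54 was thus 14.7 times the highest of the other 6 libraries, and WT 65 held an estimated 1 read. Krt14, its type I partner, was at 806.5, 635.9, 6.4 and 4.1 in the WT and at 10.4, 4.1, 27.4 and 13.4 in the Het libraries, in the same order of numbers. Krt15, a type I keratin of basal and hair bulge cells, had 405.1, 184, 13.1 and 1.4 in the WT and 7.8, 1, 3.2 and 12.2 in the Het libraries. For Krt14 and Krt15, WT 54 was 23.2 and 14.0 times the highest of the other 6. The genotypes overlapped in all 3 genes, since WT 65 lay within or below the Het range in each.

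The basal pair was compared per length. Per kilobase of transcript, Krt5 was 1.08 and 0.922 times Krt14 in WT 45 and 54, and 1.46 times in Het 56, where Krt5 and Krt14 rested on an estimated 39 and 21 reads. In the other 5 libraries both genes had 17 reads or fewer, and their ratio went from 0.0377 in WT 65 to 1.64 in Het 53.

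The suprabasal keratins had the highest values of the family. Krt2, a late keratin of the upper epidermis, had values of 2868.7, 1875.8, 13.1 and 4.8 in WT 45, 54, 57 and 65, and of 57, 7.8, 365.2 and 44.5 in Het 31, 53, 56 and 139. Krt1, the early type II keratin of cells leaving the basal layer, was at 196.8, 281.9, 2.2 and 0.2 in the WT and at 12, 2.1, 144.4 and 4.8 in the Het libraries. It was the only one of the 6 basal and suprabasal keratins above 10 on average whose highest library was WT 54, and Het 56 came close to WT 45. Krt77, a type II keratin of sweat ducts and skin, reached 14.2 in WT 45 and 2.4 in WT 54, and was at 0.7 or 0 elsewhere.

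Krt10, the type I partner of Krt1 and Krt2, differed from them in being well above 0 in every library. Its values were 2681.1, 2261.1, 122.3 and 70.5 in the WT, and 194.5, 90.9, 509.8 and 245.2 in the Het libraries. The lowest of these, in WT 65, rested on an estimated 92 reads, in a library where Krt1 and Krt5 had 1 read each and Krt2 had 10. Krt10 was 3.32 and 3.56 times Krt14 in WT 45 and 54, but 17.2 to 22.2 times in the other 6 libraries, where Krt14 had an estimated 4 to 21 reads. GENCODE places a short antisense gene inside Krt10. Whether the counting used strand is not given in the sources used here, so reads of the 2 genes cannot be told apart.

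None of the 9 tested keratins passed the genotype test. The test was limma on log2(value + 1) with Benjamini-Hochberg adjustment over all 12048 genes with a mean of at least 10. Of those genes 0.515% (62 genes) passed, all of them lower in Het. No keratin had an unadjusted p below the 0.05 threshold either, where 8.19% of all tested genes did, and the genotypes did not overlap in 0 of the 9 against 5.0% of all genes. The log2 difference, Het minus WT, was below 0 in 8 of the 9 (48.0% of all tested genes), with a median of -1.42 against 0.01 over all genes. These are lower values in Het that did not exceed the spread between libraries. Krt15 and Krt79 were among the 9 only through WT 45 and WT 54, while Krt7 and Krt8, higher on average in Het, missed the filter. The smallest adjusted p was that of Krt15, which averaged 151 ± 189 over the WT libraries and 6.05 ± 4.98 over the Het libraries (SD, n = 4 per genotype). Its log2 difference was -2.84 (SE 1.42, 95% interval -5.97 to 0.30), with a limma adjusted p of 0.646 and an exact permutation p of 0.200.

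The other epidermal keratins tested had log2 differences nearer 0. Krt5 averaged 474 ± 562 over the WT and 21.3 ± 20.5 over the Het libraries (-1.73, 95% interval -5.88 to 2.42, limma adjusted p = 0.800). Krt2 was at 1191 ± 1423 and 119 ± 166 (-1.42, interval -5.73 to 2.88, limma adjusted p = 0.838), and Krt10 at 1284 ± 1382 and 260.1 ± 178 (-1.14, interval -3.59 to 1.30, limma adjusted p = 0.777). Krt14 was at 363 ± 419 and 13.8 ± 9.84 (-2.42, limma adjusted p = 0.690), and Krt1 at 120.3 ± 142 and 40.8 ± 69.2 (-0.67, limma adjusted p = 0.926). The intervals of Krt5, Krt2 and Krt1 ran past 2 log2 units on either side of 0, so they hold large differences in both directions. Without WT 45 and WT 54 the log2 differences of Krt5, Krt14, Krt2, Krt10 and Krt1 were 2.28, 1.02, 2.58, 1.22 and 2.79, all above 0 and none passing (limma adjusted p = 0.999). Krt1 also changed sign without WT 45, WT 54 or Het 53 alone (0.40, 0.57 and 0.05), and Krt2 without WT 45 (0.01).

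**Figure D2:**
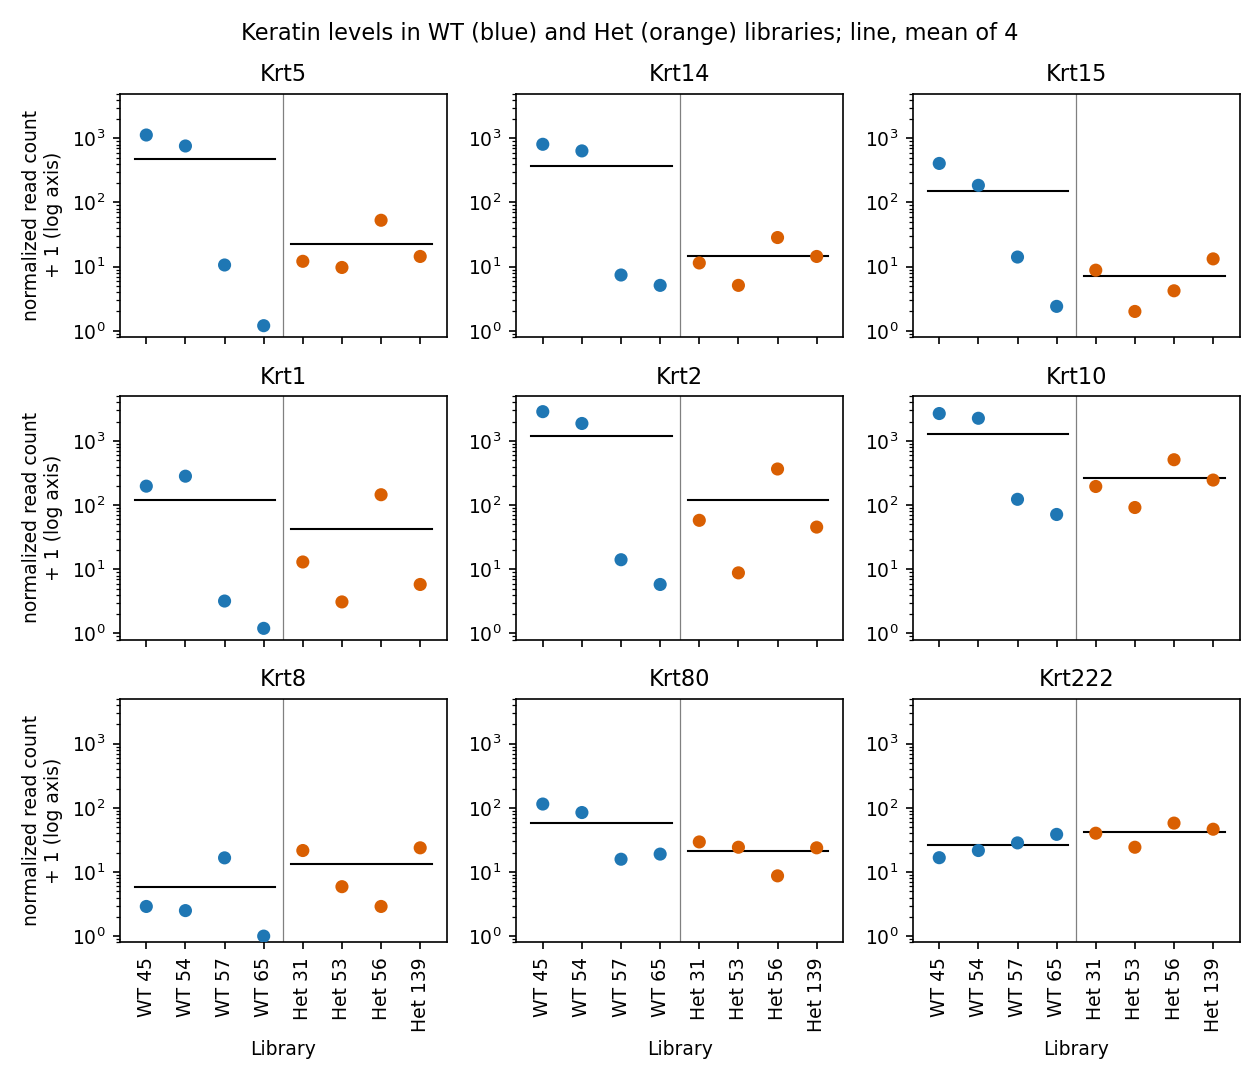
Normalized read count + 1 on a log axis for 9 keratins in each library, WT in blue and Het in orange, with a line at the mean of the 4 libraries of a genotype. In the 6 upper panels WT 45 and WT 54 lie above every other library while WT 65 lies among or below the Het libraries; Krt8 and Krt222 do not follow that order.

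The order of libraries was then compared with that of all genes. WT 45 and WT 54 were the 2 highest libraries for 8 of the 9 tested keratins and for 3.77% of all tested genes. Both were at least 5 times every other library for 5 of the 9 (Krt2, Krt5, Krt14, Krt15 and Krt79) and for 0.232% of all genes, which is 28 genes. These 2 libraries were singled out after their keratin values had been seen, so the counts describe the pattern and carry no test. The filter on the mean also favors genes high in these 2 libraries, here and in the lists below. Krt15 and Krt79 averaged below 10 over the other 6 libraries and were tested only through WT 45 and WT 54. Krt7 and Krt8, which were low in both, missed the filter at means of 8.56 and 8.65. The 28 also held Dsp, Dmkn, Lor, Lgals7, Flg2, Col17a1 and Esrp1 of the lists described below, and Col3a1 of the fibroblast list. The other 15 were Col6a1, Col8a1, Eln, Mmp2, Elovl4, Fa2h, Psapl1, Lce1m, Fcgbp, Fgfr2, Emp2, Clca2, Tmem45a, Cst6 and Alox12e, which are in none of the lists. WT 45 was the highest library for 7 of the 9 tested keratins and for 12.4% of all tested genes. Without a filter it was the highest for 15 of the 32 keratins above 0 anywhere, some of them on a few reads.

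WT 45 and WT 54 were also compared with each other. Of the 10 keratins at 10 or more in both, 8 were higher in WT 45, with a WT 45 to WT 54 ratio between 0.698 (Krt1) and 2.57 (Krt17) and a median of 1.42. Krt5, Krt14 and Krt2 were at 67.4%, 78.8% and 65.4% of their WT 45 value in WT 54, and Krt15 at 45.4%.

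Het 56 showed the family in other proportions. Relative to WT 45 it held 73.4% of Krt1, 19.0% of Krt10 and 12.7% of Krt2, but 4.60% of Krt5, 3.40% of Krt14 and 0.790% of Krt15. Its Krt15, at 3.2, stood for an estimated 2 reads. Krt1 was thus 2.79 times Krt5 in Het 56, against 0.175 in WT 45 and 0.371 in WT 54. Krt24, a type I keratin of stratified epithelium, was at 39.7 in Het 56 (an estimated 30 reads), 14.2 in WT 45 and 9.1 in WT 54, and at 0 in the other 5 libraries. Krt9, the keratin of palm and sole skin, was at 13.8 in Het 56 (an estimated 11 reads) and at 0 in each of the other 7. Among the Het libraries, Het 56 was also the highest for Krt5, Krt14, Krt10 and Krt222, but not for Krt15.

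**Figure D3:**
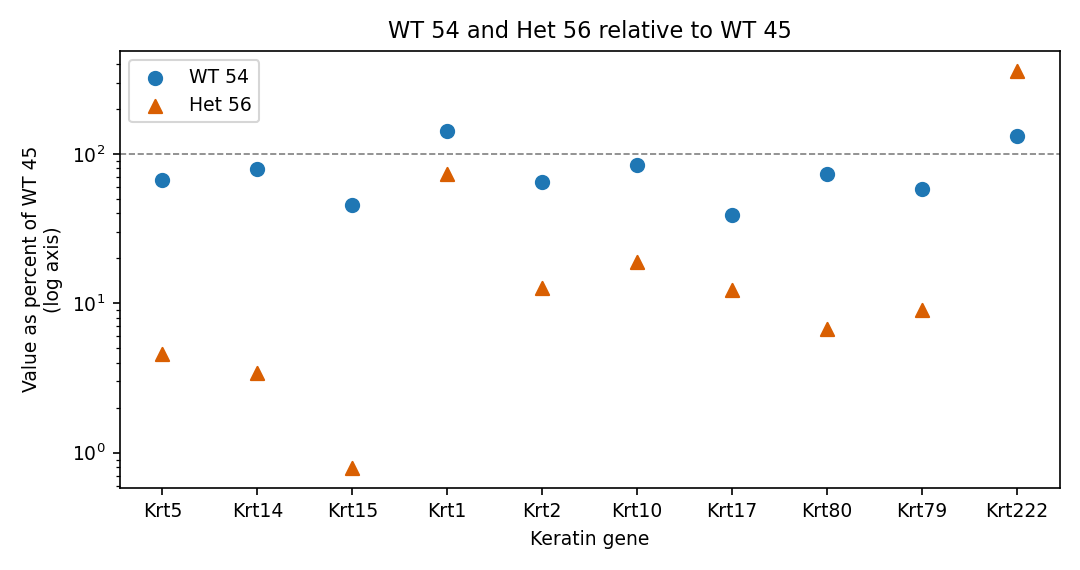
Value in WT 54 (circles) and Het 56 (triangles) as a percent of WT 45, on a log axis, for the 10 keratins at 10 or more in both WT 45 and WT 54; the dashed line is 100%. WT 54 stays between 38.9% and 143%, while Het 56 runs from 0.790% for Krt15 to 73.4% for Krt1, with Krt222 apart at 362%.

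The promoters of the 4 keratins with the highest values are shown for their core region, because these genes carry the pattern of WT 45 and WT 54. Each is the 100 bases before the start site, from RefSeq on GRCm38.p6, minus strand, in lower case, and the capitals mark the motif TATAA where it lies 45 to 15 bases before the start.
Krt5, chr15:101712906-101713005: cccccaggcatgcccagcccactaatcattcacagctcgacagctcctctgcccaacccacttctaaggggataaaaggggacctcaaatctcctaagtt
Krt14, chr11:100206031-100206130: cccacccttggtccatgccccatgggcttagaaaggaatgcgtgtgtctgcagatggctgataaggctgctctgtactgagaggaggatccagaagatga
Krt2, chr15:101818170-101818269: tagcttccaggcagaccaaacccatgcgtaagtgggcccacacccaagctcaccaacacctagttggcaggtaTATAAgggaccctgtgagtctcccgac
Krt10, chr11:99389365-99389464: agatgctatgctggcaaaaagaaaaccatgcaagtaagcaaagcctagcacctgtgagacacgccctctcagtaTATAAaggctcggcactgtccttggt

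TATAA was present in Krt2 and Krt10, starting 27 and 26 bases before the start site, and its letters were not in that window of Krt5 and Krt14. Of the 35 RefSeq promoters found for 34 of the 52 keratins, 17 (48.6%) held TATAA in the window on the gene's strand, against 3.89% of all 32851 promoters of the table. Among keratins that stayed below 10 in every library the share was 13 of 23 promoters (56.5%), and among those that reached 100 it was 2 of 4. The AP-1 letters TGANTCA were found on either strand of the 250 bases before the start in 2 of the 35 keratin promoters (5.71%, all promoters 6.75%). The AP-2 letters GCCNNNGGC were found in 4 (11.4%, all promoters 13.7%). Neither was in the 4 promoters shown. A match is a description of letters, not a binding site.

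Of the 7 keratins classed with single-layered epithelium, Krt7 and Krt8 were high in other libraries than the epidermal ones, while Krt18, Krt23 and Krt80 were highest in WT 45. Summed, the 7 were highest in WT 45 and WT 54, at 133.8 and 87.9, of which Krt80 gave 113.6 and 83.5. Krt80 is a keratin of many epithelia, so these 2 sums do not stand for single-layered epithelium. Krt8 had values of 1.9, 1.5, 15.6 and 0 in WT 45, 54, 57 and 65, and of 20.6, 4.9, 1.9 and 22.8 in Het 31, 53, 56 and 139. Krt7, a type II keratin of ducts and mesothelium, was at 1.1, 0, 17.1 and 1.4 in the WT, and at 25.1, 1, 0 and 22.8 in the Het libraries. Both were thus high in WT 57, Het 31 and Het 139, on an estimated 21 to 35 reads. They were low where the epidermal keratins were highest, but also in WT 65 and Het 53, which had the lowest keratin sums (149 and 177.1). Krt18, the type I partner of Krt8, did not keep to it: it was at 10 in WT 45, where Krt8 was at 1.9, and at 1.6 in WT 57, where Krt8 was at 15.6. Krt19, Krt20 and Krt23 stayed at or below 6.4 in every library. Of the 7, only Krt80 passed the filter on low values, so no genotype test was made for the others.

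Markers of tissues that carry such keratins were measured beside them. Of 7 markers of mesothelium, the lining of the spleen's surface, 6 were found, none reached the mean needed for the test, and their summed signal ran from 3.8 to 10.8 over WT libraries and from 5.7 to 27.7 over Het libraries. The mesothelial factor Wt1 was at 2.1 and 1.9 in Het 53 and 56 and at 0 in the other 6. Of 5 thymic epithelium markers, 3 were at 0 in all 8 libraries, Psmb11 and Ccl21a among them, while Aire reached 7.4 and Prss16, a protease, lay between 13.1 and 34.9. The 10 markers of glandular epithelium summed to 640.9, 327.4, 274.4 and 183.4 in WT 45, 54, 57 and 65, and to 208.6, 151.4, 180.8 and 249.0 in Het 31, 53, 56 and 139. After WT 45 and WT 54, the next 3 libraries were thus WT 57, Het 139 and Het 31, those with high Krt7 and Krt8. In that order Cdh1 gave 146.3, 169.6 and 110.7 of these sums, and Cldn4 had the same 3 libraries next. Epcam and Rab25 did not: both were lowest of all 8 in Het 139, at 17.5 and 3.8. Leaving WT 45 and WT 54 aside, both were highest in Het 53, at 41.4 and 29.9, where Krt7 and Krt8 were at 1 and 4.9. The part of such cells in the values of Krt7 and Krt8 was not tested. GENCODE or RefSeq places antisense or noncoding genes over Krt7, Krt80, Krt24 and Krt222, so their reads are uncertain in the same way as those of Krt10.

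Krt80 and Krt222 were above 0 in all 8 libraries. Krt80, a type II keratin of many epithelia, was at 113.6, 83.5, 14.8 and 18 in the WT and at 28.4, 23.3, 7.7 and 22.8 in the Het libraries (log2 difference -1.07, SE 0.70, limma adjusted p = 0.690). WT 45 and WT 54 were again highest, at 4.0 and 2.94 times the highest of the others, but Het 56 was the lowest library. Krt222, a keratin-like protein, was at 15.7, 20.6, 27.4 and 37.6 in the WT and at 39.2, 23.3, 56.8 and 45.4 in the Het libraries. It was the only tested keratin with a higher mean in Het, averaging 41.2 ± 14.0 against 25.3 ± 9.49 (SD, n = 4 per genotype). Its log2 difference was 0.68 (SE 0.41, 95% interval -0.22 to 1.58), with a limma adjusted p of 0.668 and an exact permutation p of 0.114. Its 2 lowest libraries were WT 45 and WT 54, and the genotypes overlapped through Het 53.

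Hair keratins were all but absent. Of 15 hair shaft keratins, 10 were listed at 0 in every library, and the highest value of any was 1.9, for Krt86 in Het 56, which is 1 read. Of 10 keratins of the follicle's sheaths, 8 were at 0 everywhere and Krt25 reached 0.3. The exception was Krt79, made in the cells that line the hair canal, at 96.9, 56.2, 1.6 and 0 in the WT and at 4.8, 0, 8.7 and 3.8 in the Het libraries (log2 difference -1.44, SE 1.45, limma adjusted p = 0.782). Of the 51 Krtap genes, which encode the matrix around hair keratins and are outside the members, 43 were at 0 in every library and the highest value was 3.4.

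The wound and mucosal keratins were low. Krt17, a type I keratin of hair follicles and injured skin, was at 36, 14, 0 and 1 in the WT and at 4.8, 1, 4.4 and 4.8 in the Het libraries. Krt16, which rises with it in wounds, reached only 2.9, and Krt6a and Krt6b, close copies of each other whose reads may be split, reached 6.1 and 4.1. Krt78, a type II keratin of mucosa and skin, reached 12.9 and 4.6 in WT 45 and WT 54, against 1.5 or 0 elsewhere. Krt13, of the oral and esophageal lining, stayed at 9.1 or below, and Krt12 of the cornea and Krt76 were at 0 in all 8 libraries. Krt4, a mucosal keratin, was at 0.2, 0, 0 and 0 in the WT and at 0.9, 1, 3.2 and 2.9 in the Het libraries, which is an estimated 1, 1, 2 and 2 reads in Het. The lowest possible value is higher in Het than in WT libraries, so that difference was not readable at this depth.

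The order of the keratins along their chromosomes was compared with their values. RefSeq's GRCm38.p6 annotation, used for gene order because the files name mm9, places 27 of the members on chromosome 11 and 23 on chromosome 15. Of these, 3 on chromosome 11 (Krt10, Krt14 and Krt15) and 4 on chromosome 15 (Krt5, Krt2, Krt1 and Krt80) reached 100. Krt10 lay between Krt28 and Krt12, both at 0 in all libraries, and Krt5 between Krt6a (6.1 or less) and Krt71 (0). Krt2 and Krt1 were neighbors, with Krt73, at 0, before them and Krt77 after them. Krt14 lay between Krt9 and Krt16, which were at 0 and at 0.4 or less in WT 45 and 54.

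Of the genes for the cornified envelope, the crosslinked protein shell of dead skin cells, most of those tested were highest in WT 45 and WT 54. Dmkn, a secreted protein of the upper epidermis, had values of 627.4, 402.6, 2.9 and 0.2 in WT 45, 54, 57 and 65, and of 6.8, 0, 49.2 and 2.9 in Het 31, 53, 56 and 139. Lor, the main envelope protein, was at 443.8, 292.2, 1.6 and 0.2 in the WT and at 6.1, 2.1, 24.2 and 7.9 in the Het libraries. Calm4, a calcium-binding protein of skin, reached 469.2 in WT 45, 206.3 in WT 54 and 45.2 in Het 56, against 10.4 or less elsewhere. Sbsn, the list's member with the highest mean, was highest in WT 45 and WT 54 too but well above 0 in every library. It was at 457.7, 319.4, 116.1 and 94.6 in the WT and at 85.3, 141, 174 and 61.5 in the Het libraries. Of the 13 tested genes of the list (26 of 27 found), 0 passed the genotype test and 12 had lower means on the log2 scale in Het (median -1.51). WT 45 and WT 54 were the 2 highest libraries in 11 of the 13, but both were at least 5 times every other library in only 4.

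The genes that anchor keratin filaments did not all follow the keratins. Of the desmosome genes, Perp was at 757.8, 322.3, 7.8 and 7.9 in the WT and at 19.1, 6.8, 69.2 and 11.4 in the Het libraries. The plakophilins Pkp3 and Pkp4 were instead at 1699.5 to 3078.2 and at 1580.5 to 2038.4 in all 8. Among 11 tested desmosome genes 0 passed, and WT 45 and WT 54 were the 2 highest libraries in 8. In the hemidesmosome list, which holds the anchors of basal cells to their matrix, Plec, Itga6 and Cd151 were at 240.8 or more everywhere. Dst, a giant linker also made in neurons and muscle, was alone among its 8 tested genes in passing. It averaged 486 ± 157 over the WT libraries and 44.5 ± 15.6 over the Het libraries (SD, n = 4 per genotype), and fell by 3.41 on the log2 scale (limma adjusted p = 0.00292). Its lowest WT library was WT 45, at 260.4, so its order was not that of the keratins.

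Of the keratinocyte transcription factors, Trp63, which sets basal identity, was at 81.1, 31.4, 1.1 and 0.2 in the WT and at 2.4, 1, 12.4 and 1.9 in the Het libraries. Grhl1 was at 75.9 in WT 45 and 10.4 to 46.4 elsewhere. Neither Trp63 nor Grhl1 passed the genotype test. Klf5, too low on average for the test, had another order. It was at 4.6, 13.4, 11 and 3.1 in the WT and at 2.4, 0, 17.9 and 0 in the Het libraries. Of 14 tested genes for other intermediate filaments, 1 passed: Gfap, a filament of glia (limma adjusted p = 0.0215). Lower in Het were 11 of the 14, against 48.0% of all tested genes. In 7 of the 14 the unadjusted limma p was below 0.05, against 8.19% of all tested genes.

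**Figure D4:**
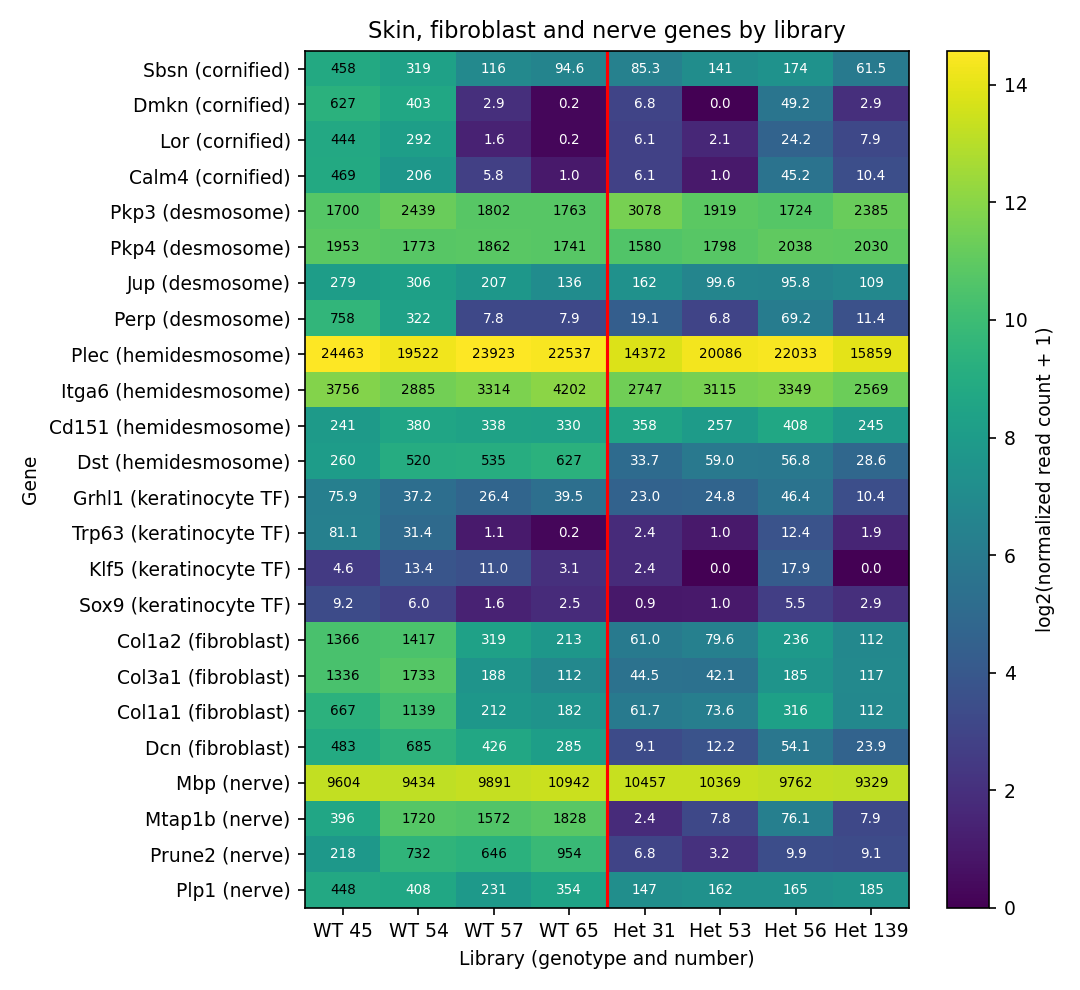
Normalized read count of the 4 members with the highest mean from each of 6 gene lists, with libraries as columns (WT left of the red line) and color on the log2(value + 1) scale; the numbers in the cells are the values. Dmkn, Lor, Calm4, Perp and Trp63 are highest in WT 45 and WT 54, the collagens too, whereas Mtap1b and Prune2 are at 217.8 or more in all 4 WT libraries.

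Markers of other cells moved with the keratins in part. Col3a1, a fibrillar collagen of fibroblasts, had 1336.1 in WT 45, 1733.4 in WT 54, 188 in WT 57, 112.1 in WT 65 and between 42.1 and 185.2 in the Het libraries. The 8 fibroblast markers summed to 3950.4 for WT 45, 5110.3 for WT 54, 1269.8 for WT 57 and 865 for WT 65, and to between 191.8 and 831.8 for the Het libraries, where Het 56 was the highest. Of the 6 tested, 1 (Dcn) passed the genotype test, lower in Het. All 6 were lower in Het with an unadjusted limma p below 0.05, against 8.19% of all tested genes at that p in either direction. Dcn was at 482.7, 685.1, 425.6 and 285 in the WT and at 9.1 to 54.1 in the Het libraries. Unlike the epidermal keratins, Dcn was thus high in WT 57 and WT 65 too. Nerve markers had another order. Mtap1b, a neuronal microtubule protein, was at 396.3, 1719.7, 1571.6 and 1827.9 in the WT and at 2.4, 7.8, 76.1 and 7.9 in the Het libraries, so it was high in WT 57 and 65, where Krt5 was at 9.6 and 0.2. Of 8 tested nerve markers 5 passed, against 0.515% of all tested genes. These 5 were lower in Het, as was every one of the 62 genes that passed. Skeletal muscle markers summed to 762.6 in Het 56 and to 251.2 to 441.9 in the other 7 libraries. The melanocyte markers summed to 15.7 or less in every library, with Tyr, the pigment enzyme, at 1 or less. The part of other cells or tissue RNA in the keratin values was not tested.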

How the data were processed

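RNA sequencing was done on 4 WT and 4 Het libraries of naive CD8 T cells. In the table the authors deposited, each of 22609 genes has a signal per library, a normalized read count given to 1 decimal. The submitters' processing notes name CASAVA, TopHat2, HTSeq, DESeq and mm9, without versions or roles. Per the labels' protocols the libraries were made with a stranded mRNA kit. The normalization step is not given in the sources used here. Sorted values were the same in every library (100% of 9513 ranks averaging 100 or more were within 2% of that average), as after quantile normalization. Whole reads could not be recovered and no count model was used.

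The 12048 genes averaging 10 or more were log2-transformed with a pseudocount of 1. They were tested 2-sided with limma 3.58.1 (R 4.3.3) using a mean-variance trend, and p-values were adjusted by Benjamini-Hochberg at a threshold of 0.05. Fold changes on this scale understate the change of low genes. Exact permutation tests on log2(value + 1) were 2-sided over all 70 assignments, whose smallest p is 0.0286. The limma step was tested on simulated data. Transcript lengths are those of the longest coding transcript in GENCODE M21.

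The members, the 7 keratin classes and 16 other lists were chosen with earlier results of these data known. Keratins reaching 10 in any library, and the 4 members of each other list with the highest mean, could be named. Genes among the 28 with the order of WT 45 and WT 54, and members named at 0 or for a low value, were named after their values were seen. Alternatives were the pseudocount, the filter, TMM factors, no trend, a robust fit, array weights, each library left out, WT 45 and WT 54 left out, and, added after seeing the data, Het 56 left out with them. 1 member of the transcription factor list is not reported here.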

Additional observations from a re-analysis of the deposited data

Results flagged for a closer look

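A library was noted when its gap to the nearest of the other 3 of its genotype was nearly the whole range. The cutoff would be met in about 1 of 20 groups if the values were independent and normally distributed. It was met in 30 of 164 groups (18.3%), 12 of them in Het 56. The values are skewed, often tied at 0, and come from related genes chosen with results known. The 18.3% can therefore not be read against chance. Among keratins, Het 56 was apart from the rest of its genotype in Krt1 at 144.4 (others 2.1 to 12), Krt2 at 365.2 (7.8 to 57), Krt5 at 51.8 (8.7 to 13.4), Krt24 at 39.7 (0) and Krt9 at 13.8 (0). WT 45 stood above the other WT libraries in Krt18 at 10 (next 1.6) and Krt77 at 14.2 (next 2.4), and WT 57 in Krt7 at 17.1 (next 1.4) and Krt8 at 15.6 (next 1.9). Krt17 was at 1 in Het 53 (others 4.4 to 4.8), and Krt78 at 1.5 in Het 31 (others 0).

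In the other lists Het 56 stood apart in Dmkn at 49.2, Trp63 at 12.4, Klf5 at 17.9, Mtap1b at 76.1, Atp2a1 at 67.9, and Tyrp1 and Defb6 at 1.9 each. WT 45 stood apart in Epcam at 146.8, Prss16 at 24.8 and Defb6 at 23.7. WT 54 did so in Pkp3 at 2438.6, Lmnb1 at 1105.9, Upk1b at 1.2, Awat2 at 11.6 and Lyz2 at 1133.4. Het 139 did so in Bnc1 at 11.4, Elovl3 at 1.9 and Lck at 38559.8, and Het 53 in Upk1b at 3.2. Values of 1.9 or less in Het 56 and Het 139 are 1 read.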

How the results depend on the processing

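No keratin passed the genotype test under any of the 18 alternatives. The lowest limma adjusted p of the 9 tested keratins was 0.247 (Krt15, without WT 65), and with any value above 0 tested it was 0.141, for Krt4. At an unadjusted p below 0.05 there were 4 of 32 keratins with that filter, 2 without WT 57, 3 without WT 65 and 0 in the other alternatives. All genes passing numbered 62, and 123 with any value above 0 and 14 with a mean of at least 50. They numbered 3 without WT 45 and WT 54, but 74 with Het 56 left out as well. With each library left out they numbered 11 to 91 (16, 11 and 16 without WT 54, 57 and 65, and 27, 21 and 30 without Het 31, 53 and 139).

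The log2 difference turned above 0 without WT 45 and WT 54 for Krt1 (2.79), Krt2 (2.58), Krt5 (2.28), Krt10 (1.22), Krt14 (1.02) and Krt80 (0.18). Without those 2 libraries Krt15 and Krt79 fell below the filter and had no value, and Krt222 stayed above 0 at 0.28. With Het 56 left out as well the log2 difference was 1.66 for Krt2, 0.81 for Krt10 and 0.57 for Krt80. With each library left out it lay between -2.05 and 0.57 for Krt1 (0.40 without WT 45, 0.05 without Het 53) and between -2.97 and 0.012 for Krt2 (without WT 45). Among keratins with a mean of at least 10, 7 were highest in WT 45, 1 each in WT 54 and Het 56, and 0 in WT 57, WT 65, Het 31 and Het 139; 8 were above 0 in WT 65 and Het 53, and 9 in the others. No paired analysis was possible because the genotypes share no replicate number. A value of 1.9 is 1 read in Het 56 and Het 139, against 0.9 and 1.0 in Het 31 and Het 53 and 0.2 to 0.3 in WT libraries, so keratins at that level could not be compared.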
